A study of Homo sapiens with 6 samples.

Results

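The genes described here encode the centromere, the kinetochore and the spindle checkpoint. They were chosen by function as a list of 42 gene symbols, with earlier results of these data known. All 42 were rows of the deposited table of 25662 symbols. The RNA came from HCT116, an established line of human colorectal carcinoma cells. One group was exposed to 1 µM BMH-21 for 24 h, and the other was the control, with 3 libraries in each. The compound BMH-21 intercalates into DNA and blocks RNA polymerase I, which makes the precursor of most ribosomal RNA. The labels describe the controls as DMSO-treated but title them 0 h, so time in culture and the drug cannot be told apart if the controls were harvested at the start. No genetic change is given for either group. The question put to the data is which transcripts of these cells differ once RNA polymerase I is inhibited.

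The kinetochore is the protein assembly that joins a chromosome to spindle microtubules in mitosis. It is built on centromeric chromatin, in which the histone H3 variant CENP-A replaces H3. The constitutive centromere network binds this chromatin and carries the MIS12, KNL1 and NDC80 complexes, of which NDC80 grips the microtubule. Kinetochores without a proper attachment recruit the checkpoint proteins, which hold back anaphase by restraining the anaphase-promoting complex. Many of these genes are transcribed mainly in the later part of the cell cycle, while others are expressed throughout it.

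Values are TPM, a transcript's share of its library per unit of transcript length, and the sequencing depth is unknown. BMH-21 replicate 3 and control replicate 1 each lay apart from their group, with mean squared deviations from the group mean of 0.0696 and 0.0586 on the log2(TPM + 1) scale, against 0.0274 to 0.0331 in the other 4 libraries. Mitochondrial transcripts took 26.1% and 25.8% of TPM in these libraries, against 20.3% to 21.6% in the other 4. Among the genes kept in the fit, BMH-21 replicate 3 was the lowest of its group for 21 of 38 members, and control replicate 1 was the lowest of its group for 32 of 38. The epithelial keratins KRT8, KRT18 and KRT19 were abundant in all libraries, with a summed level of the 7 epithelial markers of 11423 to 13010 TPM in BMH-21 libraries and 5143 to 5377 TPM in controls. Of these markers, 5 of the 6 kept in the fit were higher after BMH-21, CDH1 was not called, and VIL1 was at 0.274 TPM or less. The 5 fibroblast markers summed to 1.83 to 3.23 TPM in BMH-21 libraries and 3.68 to 4.76 TPM in controls, and COL1A2, DCN and LUM among them were at 0 throughout. The 4 endothelial markers summed to 0.194 to 0.222 TPM in BMH-21 libraries and 0.157 to 0.186 TPM in controls. The 4 immune markers in the table summed to 0.493 to 1.04 TPM in BMH-21 libraries and 3.62 to 4.62 TPM in controls, most of it CD68. The part of these markers in the results was not tested.

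Most centromere and kinetochore genes were lower after BMH-21, and none was higher. Of the 42 members, 38 passed the filter of at least 1 TPM in at least 3 libraries. Of these, 33 fell, 0 rose and 5 did not pass the test at an adjusted p under 0.05 in limma with Benjamini-Hochberg adjustment over 12041 genes. Across all genes tested, 16.9% were called lower and 19.4% higher. At an unadjusted p under 0.05, 36 members were lower and 0 were higher. All BMH-21 libraries lay below all controls for 36 of the 38, against 22.0% of all genes, and none lay wholly above, against 29.6% of all genes. When the 2 libraries that lay apart were removed, 36 members fell and 0 rose, but the shares of all genes called lower and higher were then 34.4% and 24.2%. In bulk RNA, fewer cells in the phase that uses these genes and less RNA per cell cannot be told apart.

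The filter bears on these counts. In 17 of the 38, no BMH-21 library reached 1 TPM, so these members were kept only through the controls and had to differ. They were CENPA, HJURP, OIP5, CENPI, CENPQ, CENPU, DSN1, the 4 NDC80 complex subunits, SKA1, SKA3, KNTC1, CENPF, BUB1 and TTK. Of the other 21, which reached 1 TPM in at least 1 BMH-21 library, 16 fell and 5 did not pass the test. The median log2 fold change of these 21 was -1.06, beside -1.81 for all 38 and 0.06 for all genes. A fall of at least 2-fold that passed the test was found for 11 of the 21 and 27 of the 38, and for 5.03% of all genes. One of at least 8-fold was found for 4 of the 21 and 11 of the 38, and for 0.781% of all genes. Chosen instead by a mean of at least 5 TPM over all libraries, 25 members were measured and 23 of them were lower, against 19.7% of the 8317 genes so chosen, and 8 of these 25 also had no BMH-21 library at 1 TPM.

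**Figure D1:**
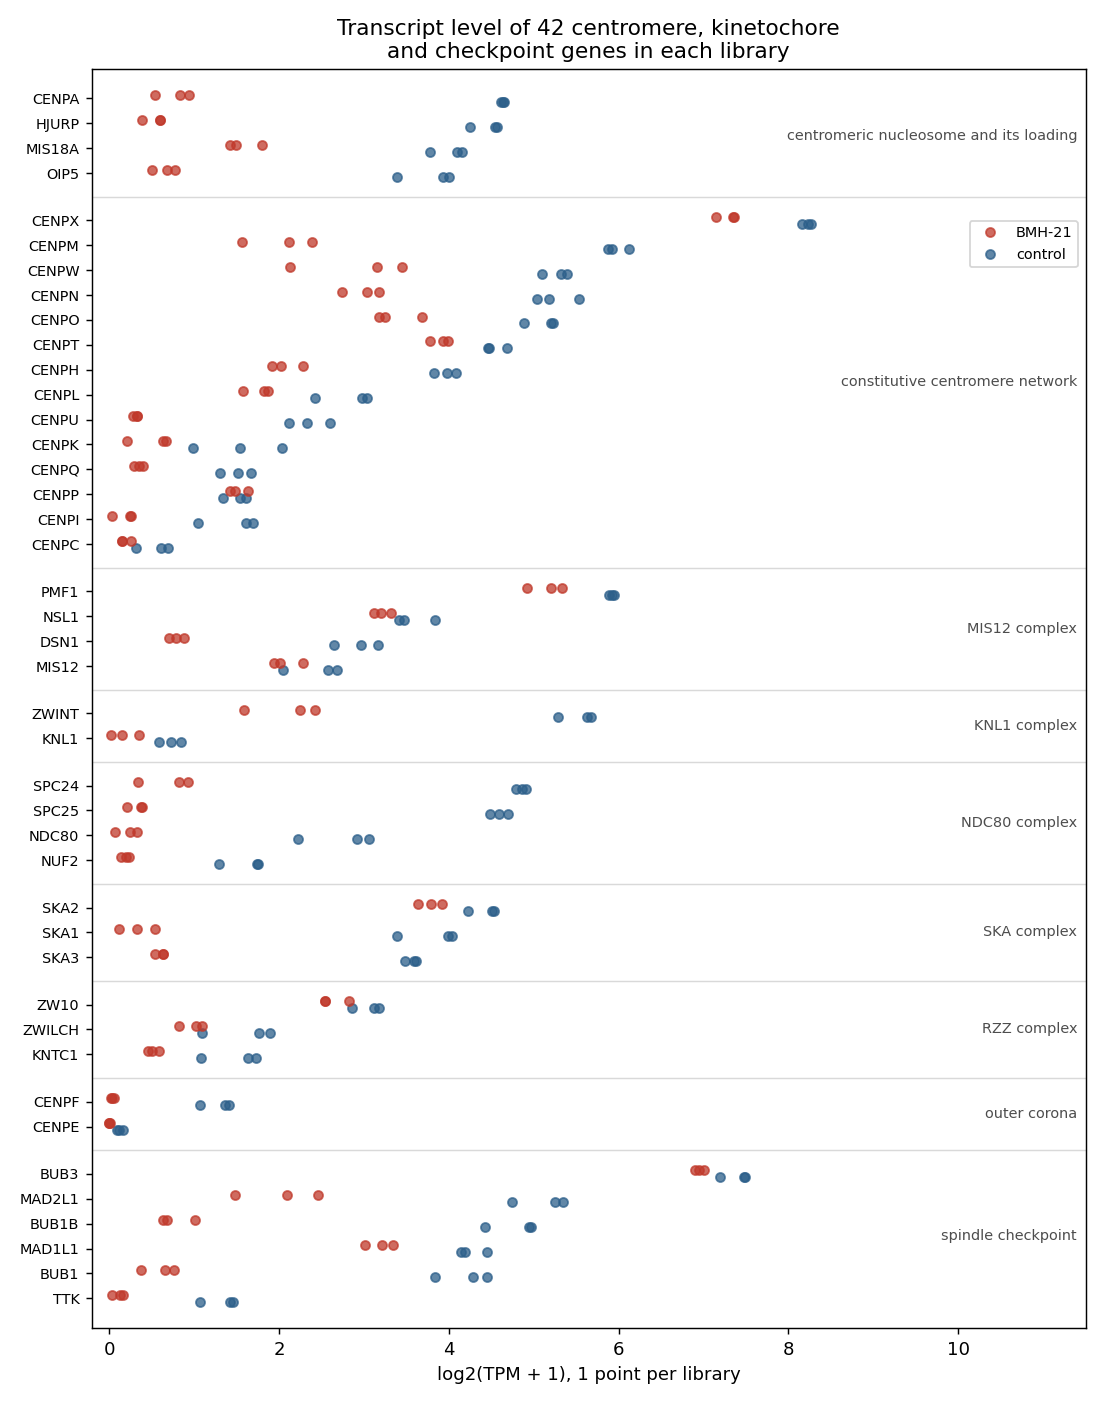
Level of each of the 42 genes in each library, as log2(TPM + 1), with 1 point per library, red for BMH-21 and blue for control, grouped by role. The red points lie left of the blue points for all genes but CENPP and MIS12, and CENPX and BUB3 are the genes with the highest levels in both groups.

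Summed over the 42 genes, the level was 432, 421 and 395 TPM in BMH-21 libraries, against 1011, 1147 and 1164 TPM in controls. Most of what remained came from CENPX and BUB3. Together they held 66.9% ± 1.13 of the summed level in BMH-21 libraries and 42.01% ± 0.66 in controls (SD, n = 3 each). The genes with the lowest log2 fold changes were SPC25, SPC24 and BUB1B, and those with the highest were NSL1, MIS12 and CENPP.

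The promoters of these 6 genes are shown because they come from both ends of that range. Each covers 250 bases before the RefSeq gene start and 50 bases after it, on the gene's own strand, in GRCh38.p14. Capitals mark any of 3 short motifs, searched on both strands. The first was the cell cycle homology region, or CHR, element (TTTGAA or TTCGAA), which is known as a binding site of the DREAM and MuvB complexes in promoters of mitotic genes. The second was the CCAAT box (CCAAT), the site of NF-Y, and the third was an E2F site (TTTCGCGC or TTTGGCGC). The windows are chr2:168890381-168890680 on the minus strand for SPC25, chr19:11155733-11156032 on the minus strand for SPC24, chr15:40160819-40161118 on the plus strand for BUB1B, chr1:212791728-212792027 on the minus strand for NSL1, chr17:5486124-5486423 on the plus strand for MIS12 and chr9:92325218-92325517 on the plus strand for CENPP.
SPC25: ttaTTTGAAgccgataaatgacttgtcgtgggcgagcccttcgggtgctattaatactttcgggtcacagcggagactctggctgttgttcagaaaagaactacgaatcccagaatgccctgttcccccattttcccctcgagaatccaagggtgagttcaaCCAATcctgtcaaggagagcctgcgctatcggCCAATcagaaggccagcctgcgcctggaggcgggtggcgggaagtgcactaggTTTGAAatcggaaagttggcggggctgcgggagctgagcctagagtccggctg
SPC24: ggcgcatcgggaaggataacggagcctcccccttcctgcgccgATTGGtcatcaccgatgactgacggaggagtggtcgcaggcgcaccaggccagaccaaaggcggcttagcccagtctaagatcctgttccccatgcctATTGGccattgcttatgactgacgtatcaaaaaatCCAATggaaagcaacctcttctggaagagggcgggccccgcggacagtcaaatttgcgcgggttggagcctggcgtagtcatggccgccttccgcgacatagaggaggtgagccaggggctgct
BUB1B: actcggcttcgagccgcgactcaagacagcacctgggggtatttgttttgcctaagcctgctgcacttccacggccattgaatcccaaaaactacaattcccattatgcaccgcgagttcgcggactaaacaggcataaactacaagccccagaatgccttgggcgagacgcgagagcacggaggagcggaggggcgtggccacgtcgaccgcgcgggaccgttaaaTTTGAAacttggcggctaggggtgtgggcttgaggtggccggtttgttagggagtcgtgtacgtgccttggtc
NSL1: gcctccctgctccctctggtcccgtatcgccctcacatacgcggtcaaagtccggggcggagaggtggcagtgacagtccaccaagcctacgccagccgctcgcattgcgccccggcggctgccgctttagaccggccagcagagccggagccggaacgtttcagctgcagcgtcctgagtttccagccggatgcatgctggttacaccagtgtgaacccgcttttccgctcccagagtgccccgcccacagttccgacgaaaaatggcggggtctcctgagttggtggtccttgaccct
MIS12: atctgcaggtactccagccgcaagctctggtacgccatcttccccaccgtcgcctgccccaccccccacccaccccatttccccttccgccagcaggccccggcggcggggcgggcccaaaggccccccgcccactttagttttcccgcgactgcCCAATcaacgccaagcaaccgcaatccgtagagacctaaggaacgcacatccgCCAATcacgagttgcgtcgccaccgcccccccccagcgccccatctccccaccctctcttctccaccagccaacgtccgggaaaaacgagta
CENPP: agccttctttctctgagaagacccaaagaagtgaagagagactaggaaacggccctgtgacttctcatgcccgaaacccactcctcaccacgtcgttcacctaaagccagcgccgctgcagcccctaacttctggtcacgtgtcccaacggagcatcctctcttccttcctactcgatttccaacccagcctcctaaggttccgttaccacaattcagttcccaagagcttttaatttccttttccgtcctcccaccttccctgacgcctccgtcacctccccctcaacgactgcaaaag
SPC25 held CHR elements that began 247 and 3 bases before the start and CCAAT boxes that began 88 and 56 bases before it. BUB1B held a CHR element that began 23 bases before the start and no CCAAT box in this window. SPC24 held 3 CCAAT boxes and no CHR element. MIS12 held 2 CCAAT boxes, while NSL1 and CENPP held none of the motifs.

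Promoter sequences were matched for 34 of the 42 members, the others being MIS18A, CENPH, CENPM, CENPL, KNL1, KNTC1, BUB3 and TTK. A CHR element was found in 18 of these 34 windows (52.9%), against 16.6% of all 27305 promoters of the same length and 10.3% of the 9455 that belong to genes kept in the fit. Split by outcome, 16 of 26 members called lower held one (61.5%), and so did 1 of 5 that did not pass the test, which was ZW10. CCAAT boxes were found in 21 of the 34 (61.8%), against 35.7% of all promoters and 37.0% of those of genes kept. Among members called lower the share with a CCAAT box was 61.5%, and 3 of the 5 members that did not pass the test held one. The members called lower included most of the 17 kept only through the controls. The filter fixed the direction of those, so neither split is by outcomes that were all free to go either way. An E2F site was found in 2 of the 34, CENPU and OIP5, against 1.18% of all promoters and 2.03% of those of genes kept. No base of a member's window belonged to 2 different motifs. These shares are descriptions without a test, and a match of letters does not show binding.

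**Figure D2:**
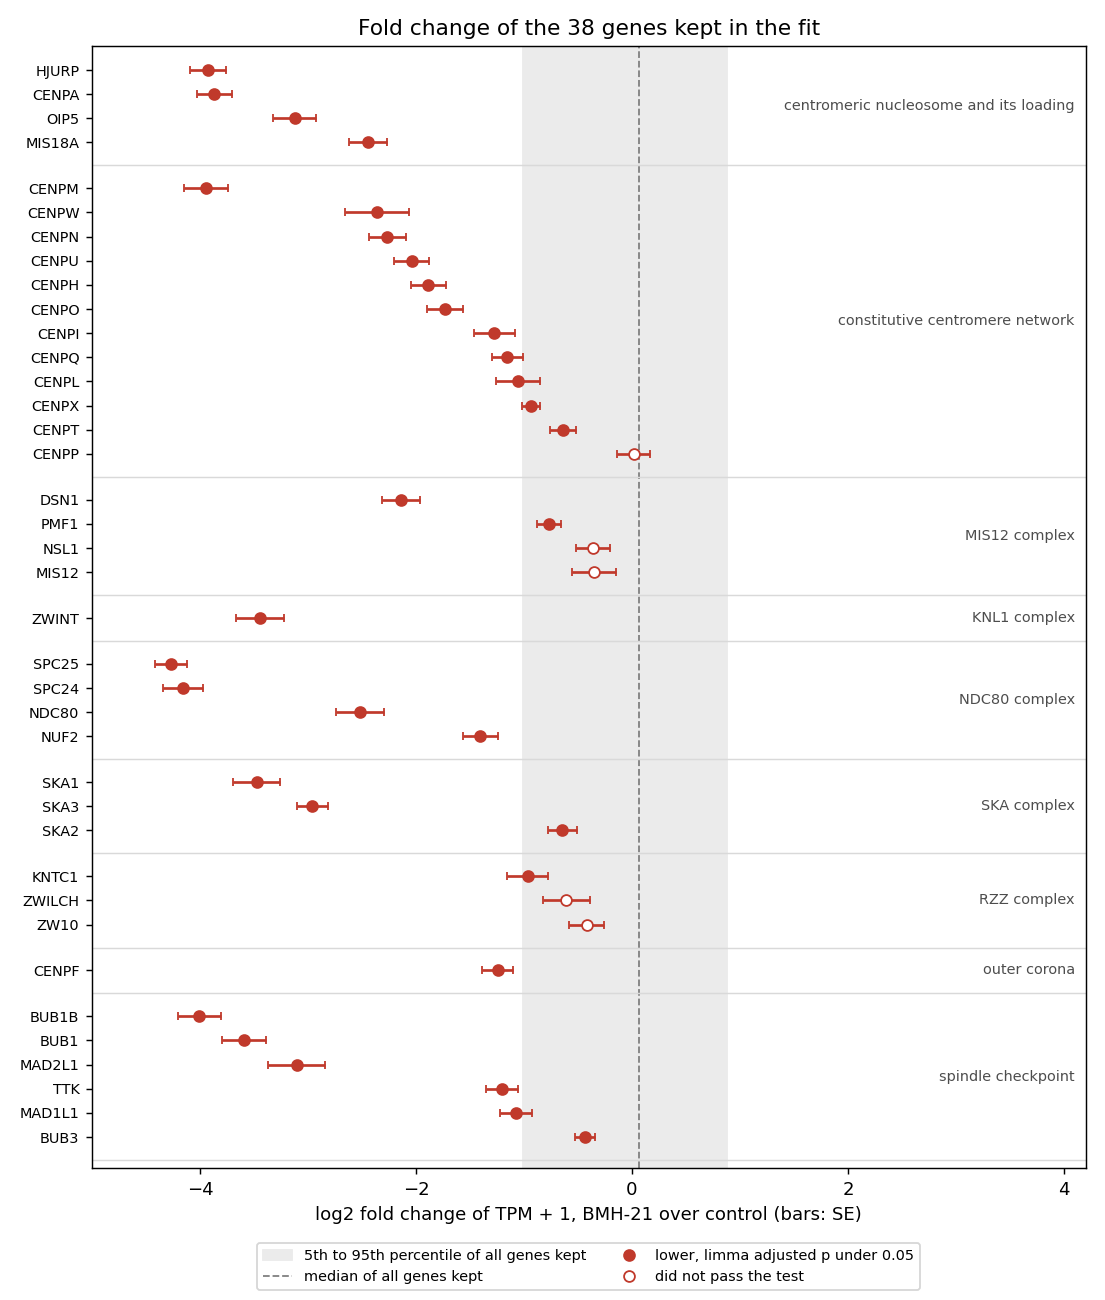
Log2 fold change of TPM + 1, BMH-21 over control, with its SE, for the 38 genes kept in the fit, by role; filled points passed the test as lower and open points did not. The grey band spans the 5th to 95th percentile of all genes, -1.01 to 0.88, and the dashed line is their median of 0.06. Members of the NDC80 complex and of the nucleosome loading group lie left of the band, while MIS12, NSL1, ZW10, ZWILCH, CENPP, CENPT, CENPX, PMF1, SKA2, KNTC1 and BUB3 lie inside it.

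At the base of the structure, the centromeric nucleosome and its loading factors were called lower in all 4 cases, against 16.9% of all genes. Of the 4, MIS18A alone reached 1 TPM in a BMH-21 library, so the filter fixed the direction of the other 3. CENPA (chromosome 2, 26764289 to 26801067 in GENCODE release 29 on GRCh38), the H3 variant that marks the centromere, had 0.779, 0.920 and 0.449 TPM in BMH-21 libraries, against 23.5, 24.1 and 24.0 TPM in controls. The groups were far apart and the controls nearly equal, with a log2 fold change of -3.87 (standard error, SE, 0.16, adjusted p in limma = 6.6e-07), and the mean TPM in controls was 33.3 times that after BMH-21. HJURP, the chaperone that deposits CENP-A, had 0.518, 0.518 and 0.309 TPM after BMH-21, against 18.0, 22.4 and 22.7 TPM in controls, a log2 fold change of -3.93. OIP5, a subunit of the MIS18 complex that licenses this deposition, had 0.711, 0.422 and 0.601 TPM in BMH-21 libraries, against 9.52, 15.0 and 14.2 TPM in controls. Its partner MIS18A kept a higher residual level, 1.99 ± 0.42 TPM after BMH-21 and 15.3 ± 2.19 TPM in controls (SD, n = 3 each), with a log2 fold change of -2.44. Of the 1236 exonic bases of OIP5, 470 are shared with the antisense gene OIP5-AS1, and the strand setting is not given, so its reads may be mixed.

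The constitutive centromere network was measured unevenly. Of its 14 members, 12 were kept, 11 fell and CENPP was not called. CENPI, CENPQ and CENPU were kept only through the controls and had to be lower. Of the other 9, 8 fell, against 16.9% of all genes called lower. The median log2 fold change of the 12 was -1.50. The largest log2 fold change was that of CENPM, a subunit of the CENP-HIKM group that has the fold of a small GTPase. CENPM had 3.33, 4.26 and 1.95 TPM in BMH-21 libraries, against 68.5, 59.5 and 57.7 TPM in controls, a log2 fold change of -3.95 (SE 0.20, adjusted p in limma = 2.1e-06). Its partners CENPH and CENPI had log2 fold changes of -1.89 and -1.27. On the ratio of mean TPM, the control level of CENPI was 13.3 times and that of CENPH 4.51 times the BMH-21 level, so the order of these 2 depends on the scale, since CENPI had 0.135 TPM after BMH-21 and 1.79 TPM in controls, near the pseudocount of 1.

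CENPL and CENPN, which bind each other and recognise the CENP-A nucleosome through CENP-N, fell by 1.06 and 2.27 on the log2 scale. In the CENP-OPQUR group, CENPU, CENPO and CENPQ fell by 2.04, 1.73 and 1.16. On the ratio of mean TPM, their control levels were 17.1, 3.55 and 6.81 times the BMH-21 levels. The order of CENPO and CENPQ thus depends on the scale, as CENPQ had 0.271 TPM after BMH-21 and 1.84 TPM in controls. CENPP of the same group (chromosome 9, 92325484 to 92620533) had 1.69, 1.80 and 2.11 TPM in BMH-21 libraries, against 1.54, 1.92 and 2.06 TPM in controls. Its groups overlapped, with a log2 fold change of 0.02 (SE 0.15, adjusted p in limma = 0.95) that turned to between -0.01 and -0.12 under 5 of the 17 alternatives. Of the 9794 exonic bases of CENPP, 3719 are shared with IPPK on the opposite strand, and of the 5518 of CENPO, 1488 are shared with ADCY3 on the opposite strand, so neither level can be given to 1 gene with certainty.

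The histone-fold proteins of the CENP-TWSX group split by size of change. CENPW fell by 2.36 on the log2 scale, to 7.07 ± 3.36 TPM after BMH-21, against 37.8 ± 4.16 TPM in controls (SD, n = 3 each). CENPT, its partner in a histone-fold dimer, fell by 0.64, with 14.0 ± 1.12 TPM after BMH-21 and 22.4 ± 2.09 TPM in controls. CENPX (chromosome 17, 82018702 to 82024107), which also serves the Fanconi anemia pathway as MHF2, was the most abundant of all members. CENPX had 162, 163 and 141 TPM in BMH-21 libraries, against 286, 299 and 308 TPM in controls, a log2 fold change of -0.94 (SE 0.08, adjusted p in limma = 4.7e-05).

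In the outer kinetochore the MIS12 and NDC80 complexes differed in size of change. All 4 NDC80 subunits were called lower, and all 4 were kept only through the controls, so that count was fixed by the filter. The sizes of change below are on the log2(TPM + 1) scale and depend on the pseudocount at such low levels. SPC25 (chromosome 2, 168834132 to 168913371) had 0.301, 0.307 and 0.157 TPM in BMH-21 libraries, against 21.4, 25.0 and 23.2 TPM in controls. This was the largest log2 fold change of any member, -4.27 (SE 0.15, adjusted p in limma = 3.0e-07), and a 91.0-fold higher mean in controls. SPC24, its partner at the inner end of the complex, had 0.770, 0.902 and 0.267 TPM after BMH-21, against 29.2, 26.8 and 28.1 TPM in controls, a log2 fold change of -4.16. NDC80, which binds the microtubule together with NUF2, had 0.165 ± 0.10 TPM after BMH-21 and 5.86 ± 1.92 TPM in controls, a log2 fold change of -2.52. NUF2 had 0.144 ± 0.037 TPM after BMH-21 and 2.06 ± 0.52 TPM in controls, a log2 fold change of -1.40 (SD, n = 3 each). On the ratio of mean TPM, the mean in controls was 35.5 times that after BMH-21 for NDC80 and 14.3 times for NUF2. These ratios rest on BMH-21 values near the floor, so the size of the gap is uncertain. CHR elements were found in the promoters of NDC80, NUF2 and SPC25 but not in that of SPC24.

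Within the MIS12 complex, which bridges the centromere and the microtubule-binding proteins, 2 of 4 subunits fell. DSN1 was kept only through the controls, so the filter fixed its direction. Of the other 3 subunits, 1 fell, against 16.9% of all genes called lower. DSN1 fell by 2.14 on the log2 scale, with 0.731 ± 0.10 TPM after BMH-21 and 6.70 ± 1.34 TPM in controls (SD, n = 3 each). PMF1 had 39.2, 35.8 and 29.4 TPM in BMH-21 libraries, against 59.7, 60.7 and 58.4 TPM in controls, a log2 fold change of -0.77 (adjusted p in limma = 0.000945). PMF1 shares 23.3% of its exonic bases with the readthrough gene PMF1-BGLAP on the same strand. The remaining subunits did not pass the test. MIS12 itself (chromosome 17, 5486285 to 5490814) had 2.86, 3.05 and 3.86 TPM after BMH-21, against 3.13, 5.42 and 4.99 TPM in controls, so the groups overlapped through control replicate 1 (log2 fold change -0.35, adjusted p in limma = 0.21). Without control replicate 1, MIS12 passed as lower, at -0.55 (adjusted p in limma = 0.043). NSL1 had 8.96, 8.20 and 7.70 TPM in BMH-21 libraries, against 10.1, 13.3 and 9.63 TPM in controls, a small gap between groups with a log2 fold change of -0.36 (adjusted p in limma = 0.11).

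The ratio of summed NDC80 complex to summed MIS12 complex transcripts was 0.0291, 0.0324 and 0.0139 in BMH-21 libraries, against 0.713, 0.703 and 0.752 in controls. The groups did not overlap, and the difference in the mean log2 ratio was -4.94 (exact two-sided permutation test, p = 0.1, the smallest that 3 against 3 libraries allow). All 4 NDC80 subunits were under 1 TPM in every BMH-21 library and were kept only through the controls. The separation of this ratio is therefore a description and no further support for a fall. The SD of the log2 ratio was 0.67 after BMH-21 and 0.05 in controls. The ratio was mostly one of SPC24 and SPC25 to PMF1, which gave 34.8 of the 47.1 TPM of the MIS12 complex after BMH-21 and 59.6 of the 81.8 TPM in controls. DSN1 of the same complex had a mean in controls 9.17 times that after BMH-21.

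**Figure D3:**
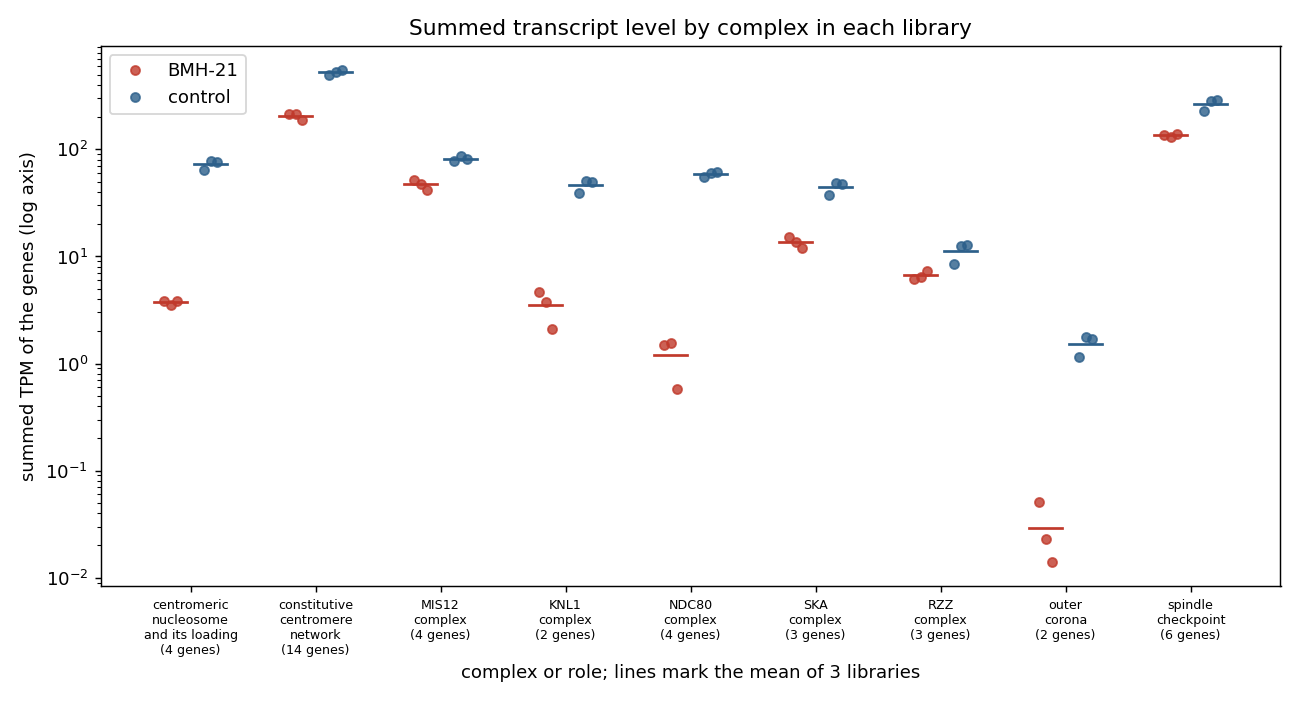
Summed TPM of each complex or role on a log axis, with 1 point per library and a line at the mean of 3, BMH-21 left of control. The NDC80 complex averaged 1.21 TPM after BMH-21 and 59.1 TPM in controls, while the MIS12 complex averaged 47.1 TPM after BMH-21 and 81.8 TPM in controls.

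Of the KNL1 complex, ZWINT alone passed the filter. ZWINT, the partner of the checkpoint scaffold KNL1, had 4.37, 3.73 and 2.01 TPM in BMH-21 libraries, against 38.2, 50.03 and 48.6 TPM in controls, a log2 fold change of -3.45 (adjusted p in limma = 7.0e-06). KNL1 had 0.282, 0.0188 and 0.111 TPM after BMH-21, against 0.794, 0.653 and 0.498 TPM in controls, and was not kept.

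The SKA complex, which couples kinetochores to depolymerising microtubule ends, also had unequal subunits. SKA1 and SKA3 were kept only through the controls, so the filter fixed their direction, while SKA2 was free to go either way. SKA1 had 0.460, 0.261 and 0.0825 TPM in BMH-21 libraries, against 9.50, 15.4 and 15.0 TPM in controls, a log2 fold change of -3.48. SKA3 had 0.460, 0.553 and 0.547 TPM after BMH-21, against 10.2, 11.3 and 11.05 TPM in controls, a log2 fold change of -2.96. SKA2 fell much less, with 14.1, 12.8 and 11.47 TPM in BMH-21 libraries, against 17.8, 22.2 and 21.9 TPM in controls, a log2 fold change of -0.65 (SE 0.13, adjusted p in limma = 0.0061). SKA1 and SKA3 held a CHR element in the promoter window and no CCAAT box, and SKA2 held 5 CCAAT boxes and no CHR element. Among other members called lower, DSN1, CENPI, CENPT and MAD1L1 held none of the 3 motifs. The part of the motifs in the sizes of change was not tested.

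The RZZ complex, which brings dynein and the MAD1L1 and MAD2L1 proteins to unattached kinetochores, had 1 of 3 subunits called lower. This was KNTC1, which was kept only through the controls, so the filter fixed its direction. Of the other 2, 0 were called lower, against 16.9% of all genes. KNTC1 fell by 0.97 on the log2 scale, with 0.433 ± 0.065 TPM after BMH-21 and 1.85 ± 0.64 TPM in controls (SD, n = 3 each). ZW10 had 4.81, 4.82 and 6.09 TPM in BMH-21 libraries, against 6.29, 8.03 and 7.72 TPM in controls, a log2 fold change of -0.42 (adjusted p in limma = 0.076). ZWILCH had 1.03, 1.13 and 0.767 TPM after BMH-21, against 1.14, 2.40 and 2.73 TPM in controls, a log2 fold change of -0.61 (adjusted p in limma = 0.060). For both, every BMH-21 library lay below every control, but control replicate 1 came close. Both calls depended on the setting. With all 6 libraries, both genes passed as lower under 3 other scalings (trimmed mean of log ratios, median of ratios and quantile normalization), and with control replicate 1 left out they passed at -0.51 for ZW10 and -0.85 for ZWILCH (adjusted p in limma = 0.045 and 0.0056). ZW10 also works in membrane traffic outside mitosis.

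Among the large corona proteins, CENPF, a partner of nuclear distribution proteins and dynein, had 0.0439, 0.0229 and 0.0141 TPM in BMH-21 libraries, against 1.10, 1.67 and 1.58 TPM in controls. CENPF was kept only through the controls, so the filter fixed its direction. Its log2 fold change was -1.24, while the mean in controls was 53.6 times that after BMH-21. Both depend on BMH-21 values near the floor, so the size of the gap is uncertain. CENPE, a kinesin that carries chromosomes to the spindle equator, had 0.00695 TPM in BMH-21 replicate 1 and was listed at 0 in the other 2 BMH-21 libraries, against 0.0657, 0.0869 and 0.118 TPM in controls.

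Spindle checkpoint genes fell in all 6 cases, over a wide range of sizes. BUB1 and TTK were kept only through the controls, so the filter fixed their direction. Of the other 4, 4 fell, against 16.9% of all genes called lower. BUB1B (chromosome 15, 40161023 to 40221136), which encodes the checkpoint inhibitor BubR1, had 0.602, 0.554 and 1.01 TPM in BMH-21 libraries, against 20.5, 29.9 and 30.4 TPM in controls, a log2 fold change of -4.01 (SE 0.20, adjusted p in limma = 1.8e-06). BUB1, a kinase that docks on KNL1, had 0.696, 0.575 and 0.298 TPM after BMH-21, against 13.3, 18.4 and 20.8 TPM in controls, a log2 fold change of -3.59. MAD2L1, which encodes the MAD2 protein that binds CDC20, had 4.48, 3.28 and 1.79 TPM in BMH-21 libraries, against 25.9, 37.3 and 39.7 TPM in controls, a log2 fold change of -3.11. TTK, the kinase MPS1 that starts checkpoint signalling, had 0.0791 ± 0.053 TPM after BMH-21 and 1.51 ± 0.35 TPM in controls (SD, n = 3 each). Its log2 fold change was -1.21, while the mean in controls was 19.0 times that after BMH-21, and both depend on BMH-21 values near the floor.

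BUB3 and MAD1L1, which anchor these proteins, changed less. BUB3 (chromosome 10, 123154277 to 123170467), a WD-repeat protein that carries BUB1 and BubR1 to the kinetochore, had 122, 119 and 128 TPM in BMH-21 libraries, against 146, 177 and 178 TPM in controls. The log2 fold change was -0.43 (SE 0.09, adjusted p in limma = 0.0069). MAD1L1, the scaffold of MAD2, fell by 1.07, with 8.19 ± 1.05 TPM after BMH-21 and 18.3 ± 2.27 TPM in controls (SD, n = 3 each).

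The ratio of BUB1 to BUB3 transcripts was 0.00569, 0.00485 and 0.00233 in BMH-21 libraries, against 0.0910, 0.104 and 0.117 in controls, a difference of -4.69 in the mean log2 ratio. For MAD2L1 to MAD1L1 the ratio was 0.632, 0.396 and 0.194 after BMH-21, against 1.24, 2.16 and 2.37 in controls, a difference of -2.34. The groups did not overlap for either pair, and each difference had the smallest possible p of 0.1 (exact two-sided permutation test, 3 against 3 libraries). BUB1 was under 1 TPM in every BMH-21 library and was kept only through the controls. The separation of its ratio is therefore a description and no further support for a fall, while MAD2L1 and MAD1L1 reached 1 TPM in all BMH-21 libraries. In TPM, which is per length, MAD2L1 was below MAD1L1 in every BMH-21 library and above it in every control.

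**Figure D4:**
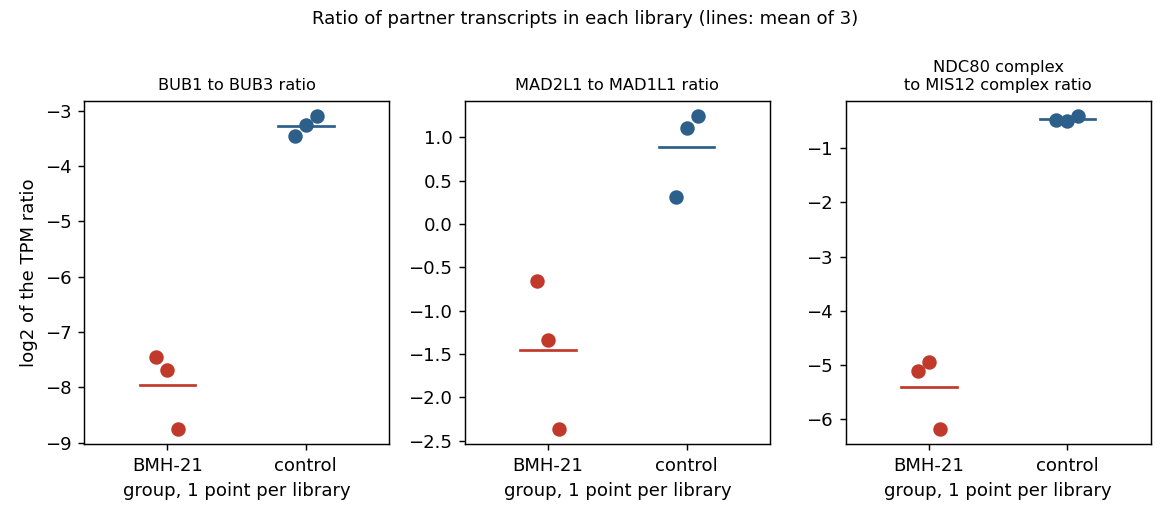
Log2 ratio of partner transcripts in each library, for BUB1 to BUB3, MAD2L1 to MAD1L1 and the summed NDC80 complex to the summed MIS12 complex, with BMH-21 left of control and a line at the mean of 3 libraries. In all 3 panels the BMH-21 libraries lie below all controls, with differences of -4.69, -2.34 and -4.94 in the mean log2 ratio. BUB1 and all 4 NDC80 subunits were kept only through the controls.

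The 4 members that missed the filter were CENPC, CENPK, KNL1 and CENPE. CENPC, which links CENP-A chromatin to the MIS12 complex, had 0.112, 0.192 and 0.107 TPM in BMH-21 libraries, against 0.531, 0.624 and 0.248 TPM in controls. CENPK, of the CENP-HIKM group, had 0.585, 0.554 and 0.155 TPM after BMH-21, against 0.979, 1.92 and 3.09 TPM in controls. Every BMH-21 library was below every control for each of these 4, at levels near the floor of the table. With no filter, KNL1 and CENPE passed as lower (adjusted p in limma = 0.019 and 0.033), while CENPC and CENPK did not (adjusted p in limma = 0.062 and 0.055).

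Low control levels were seen in members with long transcripts. The longest coding transcripts of CENPF, KNL1, CENPE and CENPC in GENCODE release 29 have 10307, 9573, 8612 and 6940 bases, and their mean levels in controls were 1.45, 0.648, 0.0902 and 0.467 TPM. BUB3 is an exception, with 7828 bases and 167 TPM. Across the 42 members, the mean control level had a Spearman correlation of -0.45 with transcript length and 0.55 with GC content, beside -0.35 and 0.29 over 10799 genes kept in the fit. These genes share libraries, and the values are descriptions. The log2 fold change of the 38 members kept had correlations of 0.28 with length and -0.15 with GC content, beside 0.04 and -0.23 over the 10799 genes. The part of length and GC content in the levels was not tested.

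Other kinetochore genes outside the list moved in the same direction where they passed the test. The 29 further genes were listed by function, but with earlier results of these data known. Of the 29, 26 were kept, 18 fell, 0 rose and 8 were not called by limma, against 16.9% of all genes called lower. Of the 26, 4 were kept only through the controls and had to be lower, and 14 of the other 22 fell. Their median log2 fold change was -1.59. At an unadjusted p under 0.05, 0 of them were higher. The largest falls were those of AURKB, the kinase of the chromosomal passenger complex, CDC20, the target of the checkpoint, and KIF2C, a depolymerising kinesin, with log2 fold changes of -5.75, -5.21 and -5.19. ITGB3BP, which encodes the CENP-R subunit of the CENP-OPQUR group, fell by 2.13, and CENPB, which binds centromeric satellite DNA, by 0.34. Those that did not pass the test were CENPS (-0.37), MAD2L1BP (0.13), BOD1 (-0.06), NDEL1 (0.19), CLASP1 (0.04), CLASP2 (0.16), CHAMP1 (-0.42) and POGZ (-0.60), and SGO2 and KIF18A were among those not kept. CENPS forms a histone-fold dimer with CENPX and had 8.51 ± 1.20 TPM after BMH-21 and 11.3 ± 1.64 TPM in controls (SD, n = 3 each).

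Markers of the dividing cell moved with these genes. All 15 listed mitotic genes that belong to neither list fell, at a median log2 fold change of -3.56, against 16.9% of all genes called lower, but 6 of the 15 were kept only through the controls and had to be lower. Their summed level was 29.2 to 40.2 TPM in BMH-21 libraries and 807 to 926 TPM in controls. All 15 listed S phase genes fell as well, each of them at 1 TPM or more in a BMH-21 library, with a median of -3.93. Their summed level was 241 to 305 TPM in BMH-21 libraries and 1831 to 2054 TPM in controls. The part of cell cycle phase in the changes of the centromere and kinetochore genes was not tested.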

How the data were processed

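Messenger RNA was measured in 6 HCT116 libraries. The authors deposited TPM per gene symbol for each library, with no counts, so no count test was used. The submitters' processing notes name STAR, Salmon and GRCh38 with no role or version. The annotation, the strand setting and any filter are not stated in the sources used here. Per the labels, the molecule is polyA RNA while the protocol describes Ribo-Zero depletion, so the enrichment is uncertain. Replicates are biological, according to the series' design text.

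Groups came from the sample titles. limma 3.58.1 in R 4.3.3 was fitted to log2(TPM + 1) of 12041 genes with at least 1 TPM in at least 3 libraries, with an intensity trend and no covariate, and two-sided p-values received Benjamini-Hochberg adjustment. Log2 fold changes are on the log2(TPM + 1) scale, which understates the change of low genes. The fit was tested on simulated data. Transcript ratios were compared by an exact permutation test. TPM is relative, so a change of total RNA per cell is not visible, and no counting interval can be given.

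Coordinates, which span all transcripts of a gene, and transcript lengths are from GENCODE release 29, and promoters from RefSeq, so gene starts can differ between them. Members, roles and gene lists were chosen with earlier results of these data known. Values in every library are given for the 12 largest changes, for members not called lower and for the most abundant member of each role, and all other members by mean or fold change. Of the other kinetochore genes, the 3 largest changes and those not called lower are named, except for an item that is not reported here, and ITGB3BP and CENPB were added after their values were seen. Alternatives covered the pseudocount, filter, scaling, variance trend, replicate block and libraries used, with the filter always taken on all 6 libraries.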

Additional observations from a re-analysis of the deposited data

How the results depend on the processing

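The number of members called lower was 33 and stayed between 33 and 36 under 16 of the 17 alternatives, while the share of all genes called lower ran between 8.85% and 34.4%. It was 23 with a mean of at least 5 TPM, where 25 members were measured. No member was called higher under any of them. Over the 38 members kept and all alternatives, 612 of 633 results kept their direction and side of the threshold, 0 lost a call, 16 gained one, all in MIS12, ZW10 and ZWILCH, and 5 reversed. Of the 38, 17 were kept only through the controls, so their stability is no further support. The gains and reversals were all among the other 21 members. With no filter, KNL1 and CENPE were called lower as well. The reversals were all of CENPP, without a call, at -0.012 with a trimmed mean of log ratios, -0.021 with medians of ratios and -0.12 without control replicate 1 and BMH-21 replicate 3. With 1 library left out, CENPP ranged between -0.062 and 0.071, below 0 without BMH-21 replicate 3 or control replicate 1. The median log2 fold change of the members was -2.95 and -1.996 with pseudocounts of 0.1 and 0.5, -1.34 with no filter, which adds the members near 0, -2.44 with a mean of at least 5 TPM, and -1.94 without control replicate 1 and BMH-21 replicate 3. Leaving out 1 library at a time gave medians of -1.90 to -1.75. Without those 2 libraries, 7061 genes were changed, of which 58.7% were lower, against 4380 and 46.6% with all libraries, the cause was not tested, and 36 members were lower. Without 1 library, 3173 to 5119 genes were changed. Other kinetochore genes called lower numbered 15 to 23 over all alternatives. With the replicate block, 34 members were lower, ZWILCH being the added one, and 4608 genes were changed. The correlations of same-numbered deviations were 0.04, -0.14 and 0.02, and 1 of 3 BMH-21 libraries correlated best with its own number. Deviations from means of 3 libraries, 2 of which held a library that lay apart, cannot settle whether same-numbered samples were paired. Ratios kept their direction under all alternatives run, with p of 0.25 over same-numbered pairs, the smallest that 3 pairs allow. TPM limits what can be said of members under 1 TPM, where the number of reads behind a value is unknown.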
